A study of Mus musculus with 30 samples.

Results

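The data described here are the levels of 49 interferon-induced genes, out of 55401 genes in the count table, in mouse lymphoma cell lines. The genes were taken from a written list of genes that interferons induce and of their regulators, by a rule that uses no measured value, although earlier results of these data were known when the list was made. The 30 RNA-seq libraries came from the Eµ-Myc; p19ARF -/- cell line, a B cell lymphoma line in which an immunoglobulin enhancer drives the Myc oncogene and the tumor suppressor p19ARF is missing, so every library shares both changes. In 17 lines labelled paclitaxel resistant, wells of 10000 cells had been exposed to paclitaxel, a drug that stabilizes microtubules, at a dose meant to kill 85% of cells in 3 days, followed by 4 days without drug, in cycles kept up for 12 to 18 weeks. The 12 lines labelled DMSO control went through the same cycles with the solvent in place of the drug, and 1 library came from the parental line. Each line grew in its own well from many cells, so a line did not start from a single cell. How many clones remained after the cycles was not measured. Each line is 1 library. All lines descend from 1 parental culture, and p-values measure the spread between lines. In bulk RNA, fewer cells of a kind and less RNA per cell cannot be told apart.

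Library totals ranged from 480919 to 6739131 counts, and the shallowest was labelled Pac C1. The B cell genes Cd79a, Cd79b, Cd22, Pax5 and Ebf1 were present in every library, and 8 of 8 B cell markers had counts. Of the markers listed for other cells, Cd3e and Cd4 of T cells, Adgre1 of macrophages, and Col3a1 and Dcn of fibroblasts were at 0 in every library, while others, such as Cd3d, Cd68 and Itgam, had counts. Some libraries had their nearest neighbor in the other group, so the names used below are only those the libraries carry. By Euclidean distance of log2 levels over the tested genes, the library labelled DMSO 12 lay nearest to Pac H4, and the libraries labelled Pac A6, Pac C1, Pac D7 and Pac H9 lay nearest to a DMSO control library. By mean distance, all 12 DMSO control libraries and 13 of the 17 paclitaxel resistant ones lay closer to the DMSO control group. The count of members called is also given without DMSO 12 and Pac H9. The counts of members above the controls in Pac G9 and in Pac H1 are also given without DMSO 12. Other counts above the controls are given with all 12 controls only.

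Type I interferons are secreted proteins that cells make when they sense foreign or misplaced nucleic acid. They bind the receptor of Ifnar1 and Ifnar2, and the kinases Jak1 and Tyk2 then activate Stat proteins, among them Stat2, which join Irf9 and bind the interferon-stimulated response element (ISRE) in the promoters of target genes. Interferon gamma uses another receptor and acts on a different element, the gamma-activated site (GAS). The induced genes encode sensors of viral RNA, proteins that block virus growth, and regulators that raise or end the response.

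The promoters of the members were searched for the shortest form of both elements. The ISRE core was written as GAAANNGAAA and the GAS core as TTCNNNGAA, N being any base, on both strands, and overlapping matches were allowed. RefSeq promoters (GRCm38.p6), from 250 bases before the start of transcription to 50 after it, were found for 38 of the 49 genes. The ISRE core occurred in the promoters of 22 of these 38 genes (57.9%), against 1079 of all 27025 genes (3.99%) and 3.44% of all 32851 promoters. The GAS core occurred for 11 of the 38 (28.9%), against 9.55% of all genes and 8.30% of all promoters. A match is a string of letters and not a measured site.

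The 250 bases before the start are printed for the 4 members with the lowest p in the comparison of paclitaxel resistant with DMSO control libraries that held an ISRE core there, passing over members with no core in the window or no entry, to show where the core lay in genes that were high in Pac G9 and Pac H1, and for the member with the lowest p that held none. Capitals mark the ISRE cores, and each sequence runs 5′ to 3′ on the strand of the gene. Ifit3 (chr19:34583279-34583528, plus strand) held 2 cores, from 156 to 147 and from 122 to 113 bases before the start.
Ifit3: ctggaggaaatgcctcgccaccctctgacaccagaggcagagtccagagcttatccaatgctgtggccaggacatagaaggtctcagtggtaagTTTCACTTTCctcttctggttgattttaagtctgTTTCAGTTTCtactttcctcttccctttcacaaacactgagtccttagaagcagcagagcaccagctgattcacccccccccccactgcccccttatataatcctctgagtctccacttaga
Rsad2 (chr12:26456453-26456702, minus strand) held 1 core, from 120 to 111 bases before the start.
Rsad2: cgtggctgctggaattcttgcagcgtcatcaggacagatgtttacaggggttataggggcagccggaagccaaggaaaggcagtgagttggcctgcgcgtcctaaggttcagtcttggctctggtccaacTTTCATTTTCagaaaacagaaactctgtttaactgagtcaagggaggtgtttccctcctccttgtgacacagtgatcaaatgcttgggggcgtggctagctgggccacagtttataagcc
Ifit1 (chr19:34640639-34640888, plus strand) held 2, from 104 to 95 and from 85 to 76 bases before the start.
Ifit1: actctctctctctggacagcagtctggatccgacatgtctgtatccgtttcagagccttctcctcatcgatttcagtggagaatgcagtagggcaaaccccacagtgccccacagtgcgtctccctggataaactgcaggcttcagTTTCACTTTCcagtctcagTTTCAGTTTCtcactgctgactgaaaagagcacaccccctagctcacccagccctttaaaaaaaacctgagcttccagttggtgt
Bst2 (chr8:71537473-71537722, minus strand) held 2 that overlap, from 130 to 121 and from 124 to 115 bases before the start.
Bst2: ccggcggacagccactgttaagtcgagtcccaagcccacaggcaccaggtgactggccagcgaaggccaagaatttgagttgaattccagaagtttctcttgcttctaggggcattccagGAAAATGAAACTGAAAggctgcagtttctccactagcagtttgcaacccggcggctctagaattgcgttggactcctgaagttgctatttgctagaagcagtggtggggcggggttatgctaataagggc
Oasl1 (chr5:114922990-114923239, plus strand) held no ISRE core in this window, which says only that these letters are not there.
Oasl1: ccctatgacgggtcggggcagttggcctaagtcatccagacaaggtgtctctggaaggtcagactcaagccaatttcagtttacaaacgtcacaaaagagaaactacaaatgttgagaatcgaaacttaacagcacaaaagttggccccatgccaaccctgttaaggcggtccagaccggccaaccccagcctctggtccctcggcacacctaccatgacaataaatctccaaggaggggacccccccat

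The level of the whole list was followed with a score, the mean over the 49 genes of the log2 CPM, the count scaled to a common library size, minus the mean of the same gene over the 12 DMSO control libraries. CPM were normalized by edgeR's TMM factors throughout, and a prior count of 2 was added before the log. In the DMSO control libraries the score ran from -0.61 to 0.55, with a median of -0.11. The 17 paclitaxel resistant libraries ran from -0.14 to 3.55 with a mean of 0.80 ± 1.12 (SD, n = 17), and the parental library stood at -0.19. Most of this spread came from 2 libraries. Those labelled Pac G9 and Pac H1 reached 3.47 and 3.55, and the next, Pac C11, reached 1.52. Pac F10 followed at 1.19, Pac D7 at 0.90, Pac H8 at 0.72 and Pac E2 at 0.70. The other 10 paclitaxel resistant libraries lay within the range of the DMSO control libraries.

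**Figure D1:**
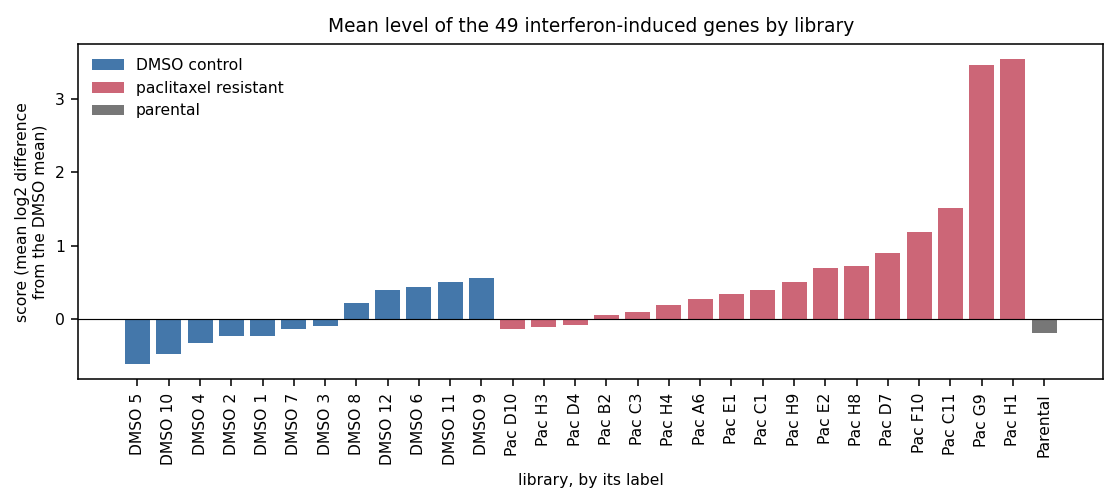
The score of each library, the mean log2 difference of the 49 interferon-induced genes from their DMSO control mean (vertical axis), with libraries on the horizontal axis ordered within their group and colored by group. Pac G9 and Pac H1 stand at 3.47 and 3.55, and the 12 DMSO control libraries lie between -0.61 and 0.55.

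The summed level of the members gave the same picture. The 49 genes together held 5959.5 CPM in Pac G9 and 5097 CPM in Pac H1, against 431 to 895 CPM in the DMSO control libraries, 529.6 to 1615 CPM in the other 15 paclitaxel resistant libraries and 548.7 CPM in the parental library. Of the 49 members, 41 exceeded every DMSO control library in Pac G9 and 41 did so in Pac H1, and 37 did so in both. The 41 in Pac G9 include Oas1a, on 1 count. With at least 4 counts required, the numbers were 40 and 41. Among the 25 members that passed the count filter, 22 exceeded every DMSO control library in Pac G9, where 15.6% of all tested genes did, and 24 in Pac H1, where 10.3% did. Without DMSO 12 the counts over all 49 members were 42 in Pac G9 and 44 in Pac H1, with 22 and 24 of the 25 tested, against 17.4% and 12.8% of all tested genes. For 29 members, Pac G9 and Pac H1 were the highest of all 30 libraries. The 2 libraries differ in depth, at 5315840 and 2075171 counts. When every library was thinned to the depth of the shallowest, the counts were 38 and 39 of 49 genes. The shares of all tested genes above the controls in both libraries, highest in both, or above the controls after thinning were not computed.

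**Figure D2:**
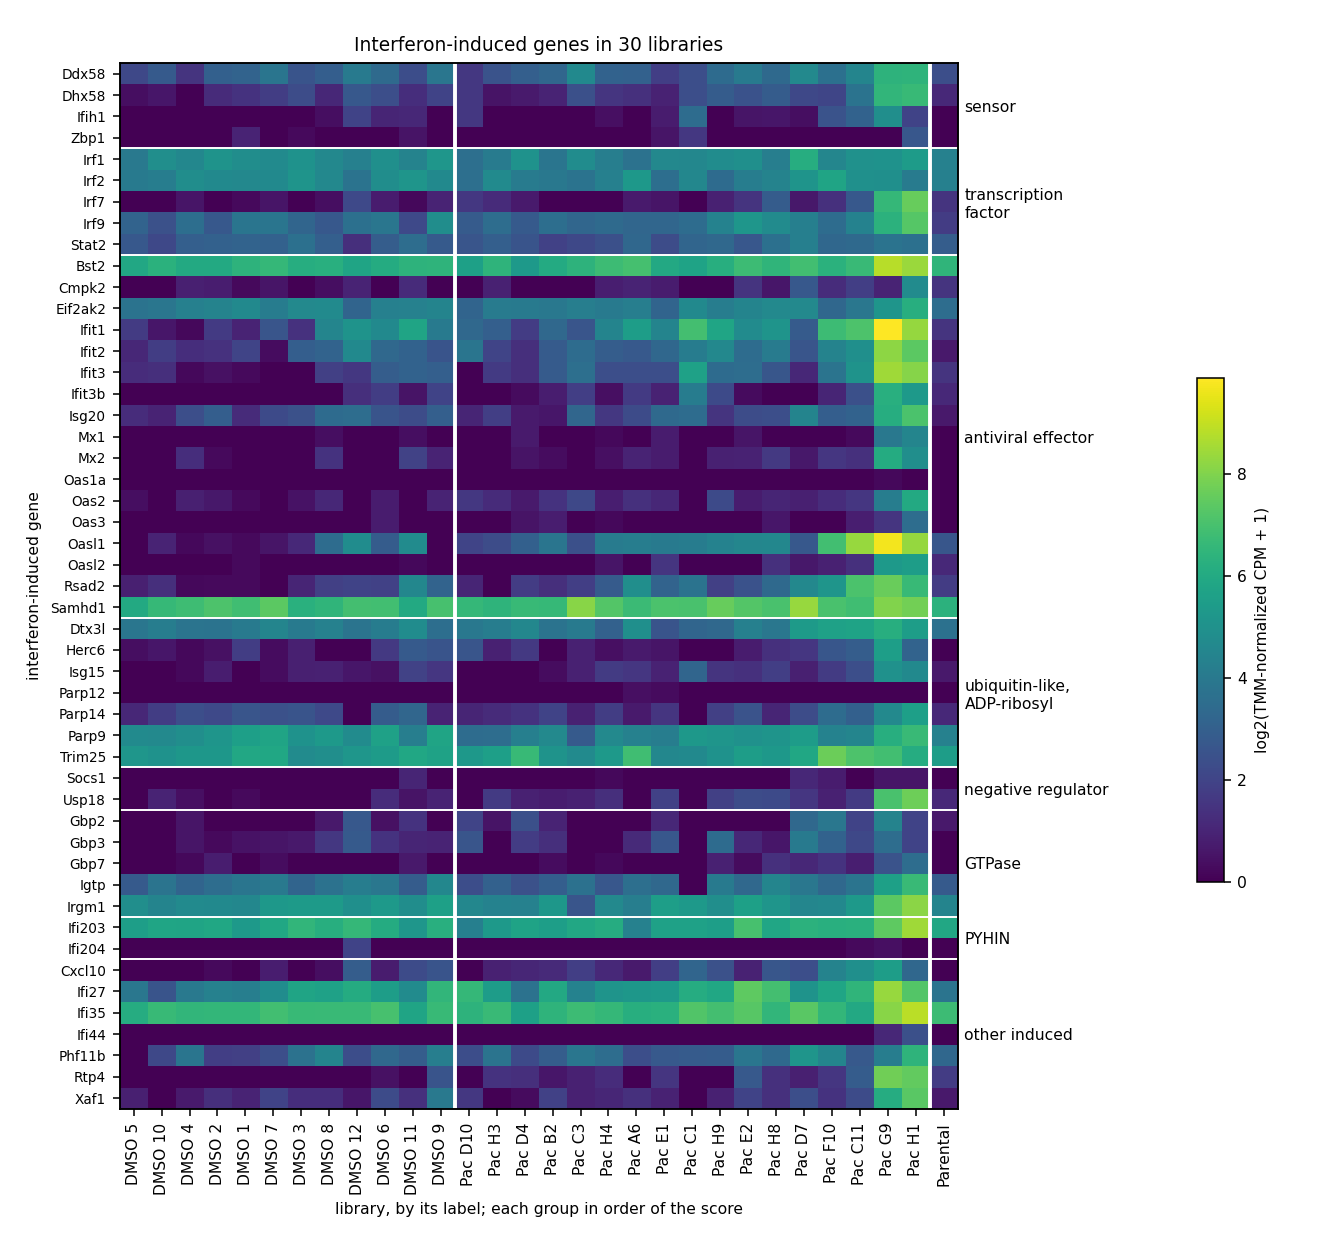
Levels of the 49 interferon-induced genes (rows, grouped by role) in the 30 libraries (columns, within each group in order of the score), as log2(TMM-normalized CPM + 1). The columns of Pac G9 and Pac H1 are bright in nearly every block, while Irf1 and Irf2 have their highest values in other columns, at 70.0 CPM in Pac D7 and 54.2 CPM in Pac F10.

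Markers of other cell types were read beside the score, and their part in the result was not tested. In Pac G9 the 6 macrophage markers summed to 66.1 CPM, the highest of all libraries, of which Cd68 made up 46.5 CPM, and in Pac H1 they summed to 20.4 CPM. The sums ran from 7.91 to 41.9 CPM in the DMSO control libraries and from 10.3 to 57.5 CPM in the other 15 paclitaxel resistant libraries. Of the other macrophage markers, Itgam was at 8.60 CPM in Pac G9 and 11.7 CPM in Pac H1, and Mrc1 at 11.0 and 3.89 CPM. The macrophage genes Lyz2, Csf1r and Adgre1 and the plasmacytoid dendritic cell gene Siglech were at 0 counts in both Pac G9 and Pac H1. These 4 genes were also at 0 in most or all other libraries. The 5 plasmacytoid dendritic cell markers summed to 97.2 and 111 CPM in these libraries and to 71.5 to 132 CPM in DMSO control, nearly all of it Tcf4, at 97.2 and 109 CPM. The T cell markers summed to 6.85 CPM in Pac G9 and 6.33 CPM in Pac H1, against 0.584 to 10.0 CPM in the DMSO control libraries, and the fibroblast markers summed to 0 in both. The B cell markers summed to 1972 and 2861 CPM in these 2 libraries and to 2263 to 4368 CPM in the DMSO control libraries.

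The comparison of all 17 paclitaxel resistant with the 12 DMSO control libraries asked which members differ with resistance. The test was the quasi-likelihood one of edgeR, with p-values adjusted after Benjamini and Hochberg and a threshold of 0.01. Among the 9445 genes tested, 94 were higher (0.995%) and 114 lower (1.21%) in the paclitaxel resistant libraries. Among the 25 members tested, Ifit3 and Oasl1 were higher and 0 were lower. At an unadjusted p under 0.05, 14 of the 25 members were higher, where 14.9% of all tested genes were, and 0 were lower, where 10.2% were. The log2 fold change was above 0 for 23 members, with a median of 0.71 over the 25 and of 0.07 over all tested genes. Without Pac G9 and Pac H1 the members Irgm1, Parp14, Ifi203, Igtp, Eif2ak2 and Irf1 turned below 0. A count filter keeps a gene that is high in enough libraries, so these counts describe the 25 members that passed and not the list. No member exceeded every DMSO control library in every paclitaxel resistant library, and neither did any other gene tested (0%).

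Both calls were lost when either of the 2 libraries with the highest scores was left out, and calls over all genes fell as well. Without Pac G9, 0 of 25 members passed, where 168 of 9349 tested genes did. Without Pac H1, 0 passed, where 168 of 9449 did. Without both, 0 passed as well, where 143 of the 9318 genes then tested did. In that last fit 8 members were higher at an unadjusted p under 0.05, against 12.5% of all tested genes. Parp9 was lower, as were 9.71% of them. The median log2 fold change of the 25 members was then 0.36, beside 0.05 over all genes. Without the libraries labelled DMSO 12 and Pac H9, 3 members passed, Ifit2 being the third (log2 fold change 3.20, edgeR adjusted p = 0.00714). Calls over all genes rose in that fit as well, to 321 of 9567.

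**Figure D3:**
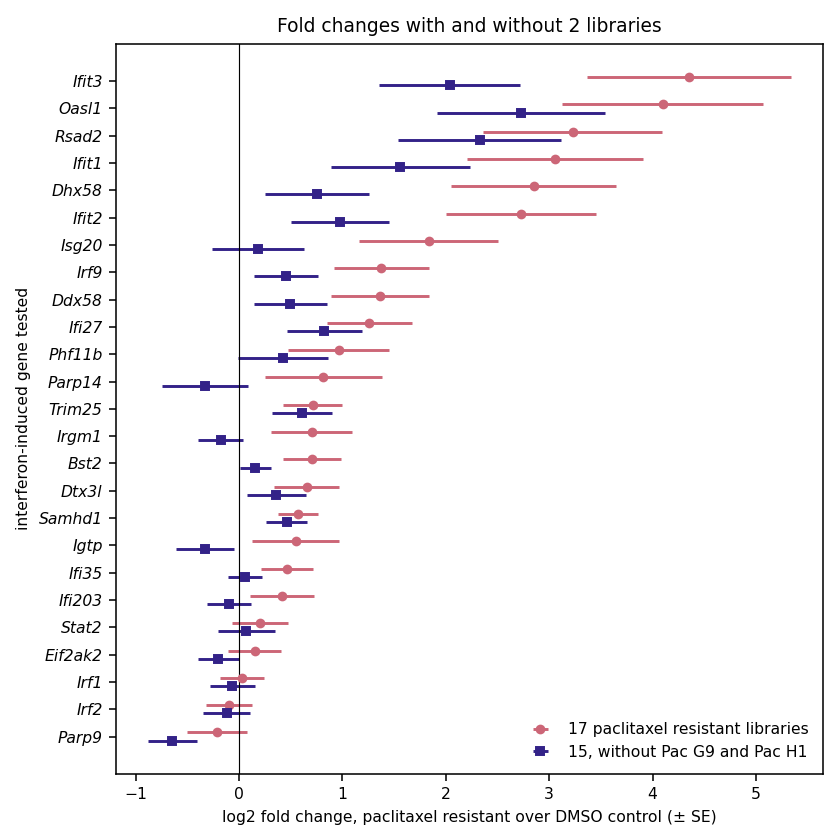
The log2 fold change of each tested interferon-induced gene, paclitaxel resistant over DMSO control (horizontal axis, bars ± SE), with all 17 paclitaxel resistant libraries (circles) and with the 15 left without Pac G9 and Pac H1 (squares). For Ifit3 the value went from 4.35 to 2.04, and for Oasl1 from 4.10 to 2.73.

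Ifit3 (ENSMUSG00000074896.3, chromosome 19, 34583531 to 34588731) encodes a partner of the RNA-binding Ifit proteins and rose in the paclitaxel resistant libraries. It stood at 0 to 7.68 CPM in the DMSO control libraries, with a median of 1.45 CPM. In the paclitaxel resistant libraries it ran from 0 to 356 CPM with a median of 6.23 CPM. Pac G9 held 356 CPM (2235 counts) and Pac H1 271 CPM (556 counts), and 6 other paclitaxel resistant libraries also exceeded every DMSO control library, up to 49.8 CPM in Pac C1, which rests on 24 counts. The groups overlapped, with Pac D10 at 0. The log2 fold change was 4.35 (SE 0.99, edgeR adjusted p = 0.00578). It was 2.04 without Pac G9 and Pac H1 (SE 0.68, edgeR adjusted p = 0.0708), 3.52 without Pac G9 alone (edgeR adjusted p = 0.0145) and 3.81 without Pac H1 alone (edgeR adjusted p = 0.0114). DESeq2 gave Ifit3 1.99 and an adjusted p of 0.0164.

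Oasl1 (ENSMUSG00000041827.15, chromosome 5, 114923240 to 114937915), a relative of the oligoadenylate synthetases known to hold back the translation of Irf7, also rose. Its DMSO control values ran from 0 to 26.6 CPM with a median of 0.742 CPM, and the 2 highest were DMSO 12 at 26.6 CPM and DMSO 11 at 26.4 CPM. All 17 paclitaxel resistant libraries lay above that median, from 3.08 to 825 CPM with a median of 16.6 CPM. Pac G9 was highest at 825 CPM, Pac C11 and Pac H1 were next at 325 and 321 CPM, and Pac F10 held 118 CPM. These 4 exceeded every DMSO control library. The log2 fold change was 4.10 (SE 0.97, edgeR adjusted p = 0.00840), and 2.73 without Pac G9 and Pac H1 (SE 0.82, edgeR adjusted p = 0.0430), the lowest p of any member in that fit. Without Pac G9 alone it was 3.24 (edgeR adjusted p = 0.0219), and without Pac H1 alone 3.86 (edgeR adjusted p = 0.0136).

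Other antiviral effectors leaned the same way and missed the threshold. Rsad2 makes viperin, an enzyme that yields a chain-terminating nucleotide. Its level ran from 0 to 23 CPM with a median of 1.26 CPM in DMSO control and from 0 to 197 CPM with a median of 7.94 CPM in paclitaxel resistant libraries. Pac G9 held 197 CPM, Pac C11 135 CPM and Pac H1 100.3 CPM (log2 fold change 3.23, SE 0.87, edgeR adjusted p = 0.0181). Ifit1, which binds RNA that lacks the cap marks of the host, ran from 0.160 to 53.0 CPM in DMSO control libraries and from 2.35 to 943 CPM in paclitaxel resistant ones. Its medians were 3.71 and 26 CPM, and Pac G9 at 943 CPM and Pac H1 at 318 CPM stood above Pac C11 at 139.8 CPM (log2 fold change 3.06, SE 0.85, edgeR adjusted p = 0.0234). Ifit2 was at 0.245 to 25.1 CPM and at 1.5 to 293 CPM, with 293 CPM in Pac G9, 166 CPM in Pac H1 and 29.4 CPM in the next library (log2 fold change 2.73, SE 0.73, edgeR adjusted p = 0.0180). For Rsad2, leaving out the libraries labelled Pac C3 and DMSO 11 gave 4.68 (edgeR adjusted p = 0.00188), DMSO 11 being the highest control at 23 CPM, and for Ifit1 it gave 3.66 (edgeR adjusted p = 0.00843). Without Pac G9 and Pac H1 the values were lower, at 2.33 for Rsad2 (edgeR adjusted p = 0.0762), 1.56 for Ifit1 (edgeR adjusted p = 0.165) and 0.98 for Ifit2 (edgeR adjusted p = 0.214). Without Pac G9 alone they were 2.68, 2.10 and 1.88.

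Of the 17 antiviral effectors, 9 passed the count filter, and 15 of the 17 exceeded every DMSO control library in both Pac G9 and Pac H1. The share of all genes that did so in both was not computed. Isg20, an exonuclease that acts on RNA, was at 135 CPM in Pac H1 and 70.9 CPM in Pac G9, and the other 15 paclitaxel resistant libraries reached 21.1 CPM against 10.5 CPM in DMSO control (log2 fold change 1.84, edgeR adjusted p = 0.0837). For Isg20 the log2 fold change was 1.02 without Pac H1 and 0.19 without both. Bst2, the tether that holds virus particles on the cell, was well expressed throughout at 54.3 to 95.7 CPM in DMSO control and reached 454 and 332 CPM in Pac G9 and Pac H1 (log2 fold change 0.70, edgeR adjusted p = 0.117). For Bst2 it was 0.41 without Pac G9 and 0.16 without both. Samhd1, which breaks down deoxynucleotides, was also above every DMSO control library in both, at 257 and 219 CPM against 63.7 to 167 CPM, although its highest library was Pac D7 at 328 CPM (log2 fold change 0.57, edgeR adjusted p = 0.0703). Eif2ak2, the kinase PKR, had a log2 fold change of 0.15 (edgeR adjusted p = 0.738), with 72.5 CPM in Pac H1 and 34.3 CPM in Pac G9 against at most 25.4 CPM in DMSO control.

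The 8 effectors below the filter were low in DMSO control, at up to 2.96 CPM. Mx1 and Mx2, dynamin-like antiviral GTPases, reached at most 0.292 and 2.90 CPM in DMSO control and held 14.3 and 66.1 CPM in Pac G9 and 21.4 and 28.2 CPM in Pac H1. Oasl2 had at most 0.193 CPM in DMSO control, with 40.0 CPM in Pac G9 and 44.3 CPM in Pac H1. The oligoadenylate synthetase genes Oas2 and Oas3 were highest in Pac H1 at 62.8 and 10.7 CPM, with 17.4 and 1.91 CPM in Pac G9, and Oas1a had 1 count in all libraries together. Ifit3b, a near copy of Ifit3 that lies 19.2 kb from it, held 74.7 and 38.9 CPM, and the counting could divide reads between the pair. Cmpk2, a nucleotide kinase that neighbors Rsad2 at a distance of 12.8 kb, was at 26.3 CPM in Pac H1 and at 0.956 CPM in Pac G9, which held only 6 counts of it beside 1234 of Rsad2.

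Of the 4 sensors, 2 exceeded every DMSO control library in both Pac G9 and Pac H1, again with no share of all genes computed. Dhx58, which encodes Lgp2, ran from 0 to 5.53 CPM in DMSO control and reached 90.8 and 101 CPM in Pac G9 and Pac H1, and the highest of the other 15 was Pac C11 at 12.5 CPM (log2 fold change 2.85, SE 0.80, edgeR adjusted p = 0.0235). Ddx58, the RNA sensor Rig-I, was at 1.77 to 15.6 CPM in DMSO control and at 81.7 and 84.7 CPM in the same 2 libraries (log2 fold change 1.36, SE 0.48, edgeR adjusted p = 0.0712). Without both libraries the log2 fold changes were 0.75 for Dhx58 and 0.50 for Ddx58. Ifih1, the sensor Mda5, exceeded its DMSO control maximum of 3.01 CPM in Pac G9 at 28.5 CPM and not in Pac H1 at 2.92 CPM. That maximum was DMSO 12, and the next control stood at 1.16 CPM, below Pac H1. Zbp1, a sensor of Z-form nucleic acid, was at 5.35 CPM in Pac H1 and 0 in Pac G9, which rests on few counts, 23 in all libraries.

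The transcription factors fell into groups by level. Irf7, which amplifies the making of interferon, was below the filter, at 0 to 3.52 CPM in DMSO control with a median of 0.242 CPM. It reached 94.3 CPM (592 counts) in Pac G9 and 190.3 CPM (391 counts) in Pac H1, and at most 6.25 CPM in the other 15 paclitaxel resistant libraries. Irf9, the DNA-binding part of the complex that holds Stat2, ran from 3.48 to 27.6 CPM in DMSO control and from 5.99 to 154 CPM in paclitaxel resistant libraries. Its medians were close, at 9.57 and 10.4 CPM, and the high values were Pac H1 at 154 CPM, Pac G9 at 80.0 CPM and Pac E2 at 35.6 CPM (log2 fold change 1.38, SE 0.46, edgeR adjusted p = 0.0604). For Irf9 the log2 fold change was 0.84 without Pac H1 and 0.46 without both libraries. Stat2 was at 12.7 and 11.7 CPM in Pac G9 and Pac H1 against at most 11.4 CPM in DMSO control (log2 fold change 0.20, SE 0.27, edgeR adjusted p = 0.670). Irf1, a factor closely tied to interferon gamma, was at 31.9 and 41.4 CPM in these libraries against 15 to 35.5 CPM in DMSO control (log2 fold change 0.03, SE 0.22, edgeR adjusted p = 0.945). Irf2, its antagonist, was at 29 and 16.1 CPM against 12.6 to 34.6 CPM (log2 fold change -0.10, SE 0.22, edgeR adjusted p = 0.815).

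**Figure D4:**
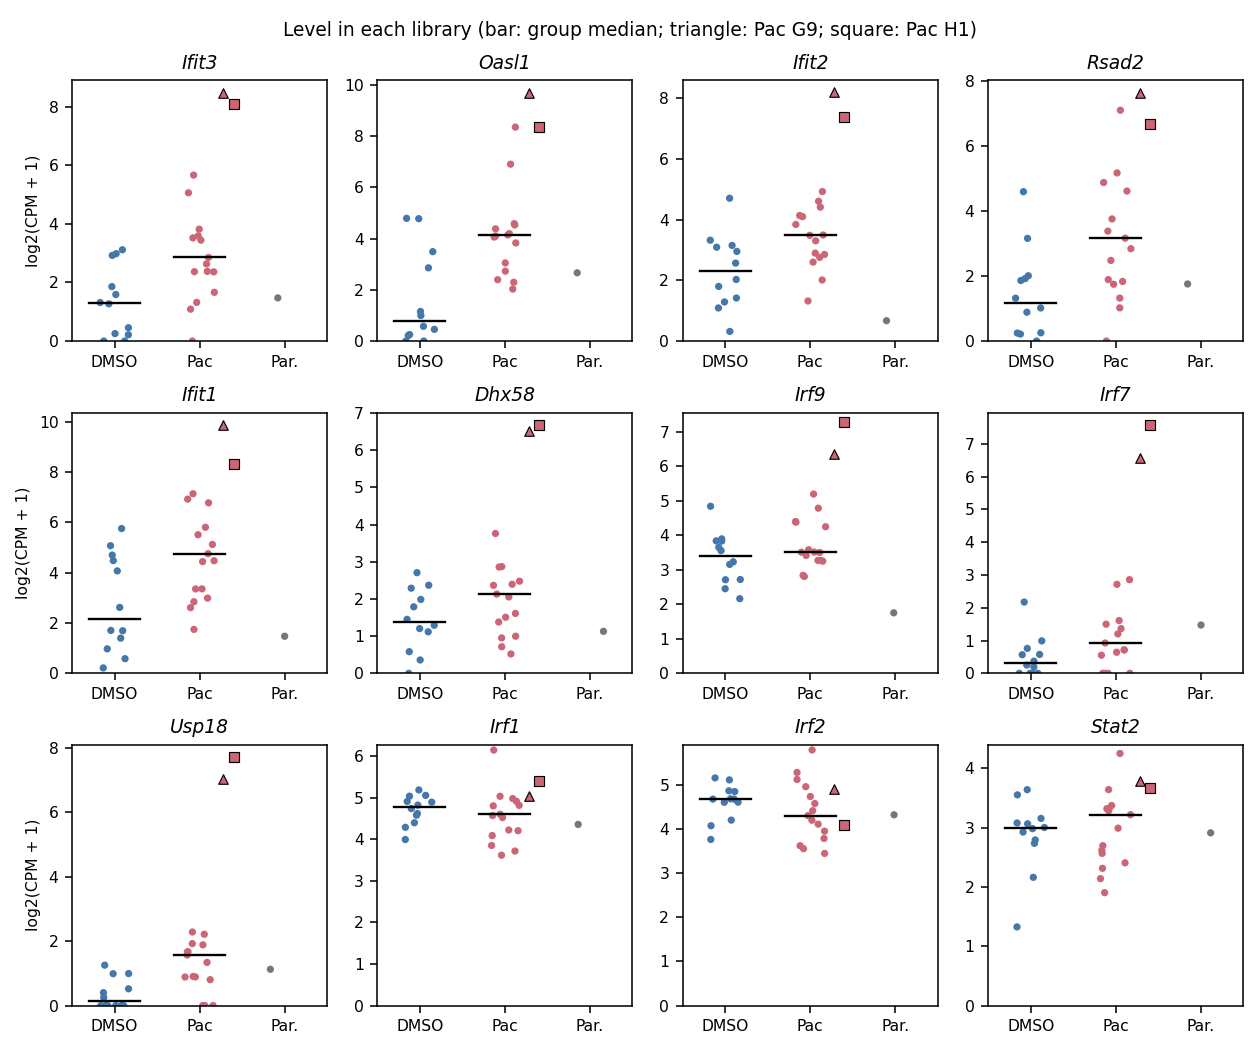
Level of 12 interferon-induced genes in each library as log2(TMM-normalized CPM + 1), by group (DMSO control, paclitaxel resistant, parental), with a bar at the group median, a triangle for Pac G9 and a square for Pac H1. In the panels of Irf7 and Usp18 only these 2 libraries stand far above the rest, and in those of Irf1, Irf2 and Stat2 they lie among or near the others.

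The negative regulators differed from each other. Usp18, which removes Isg15 from proteins and blocks the type I receptor, was at 0 to 1.39 CPM in DMSO control and at most 3.88 CPM in the other 15 paclitaxel resistant libraries. It stood at 130.3 CPM in Pac G9 and 209 CPM in Pac H1, so no other library came near. Socs1, which inhibits the Jak kinases and is strongly induced by interferon gamma, had 20 counts in all libraries and lay below its DMSO control maximum of 1.01 CPM in both. Neither gene passed the count filter.

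Isg15, the ubiquitin-like protein, was also below the filter, with 31.4 and 24.8 CPM in Pac G9 and Pac H1, up to 8.30 CPM in the other 15 and at most 2.90 CPM in DMSO control. Herc6, the ligase that attaches it in mice, was at 45.4 CPM in Pac G9 and 7.79 CPM in Pac H1, against a DMSO control maximum of 5.94 CPM. Trim25, a ubiquitin ligase that acts on Rig-I, had its highest level elsewhere, at 204 CPM in Pac F10 and 139.0 CPM in Pac C11 against 118 and 69.1 CPM in Pac G9 and Pac H1 (log2 fold change 0.71, edgeR adjusted p = 0.120). Dtx3l and Parp9 form a complex and overlap in the genome, so their reads may be shared. Dtx3l had a log2 fold change of 0.65 (edgeR adjusted p = 0.188) and Parp9 of -0.21 (edgeR adjusted p = 0.680), and both exceeded every DMSO control library in Pac G9 and Pac H1. Parp14 did the same at 24.1 and 46.2 CPM, and Parp12 had 2 counts in all libraries.

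The interferon-inducible GTPases were higher in Pac H1 where they were well expressed. Irgm1 was at 287 CPM and Igtp at 104 CPM there, with 167 and 47.6 CPM in Pac G9, against DMSO control maxima of 48.4 and 22.7 CPM (log2 fold changes 0.71 and 0.55, edgeR adjusted p = 0.258 and 0.431). Without Pac H1 they were 0.22 for Irgm1 and 0.01 for Igtp. Gbp2 and Gbp3 were the reverse, at 20.4 and 10.5 CPM in Pac G9 and 2.92 CPM each in Pac H1, which is below their DMSO control maxima of 5.53 and 6.03 CPM, both set by DMSO 12. Without DMSO 12 those maxima were 1.74 and 2.04 CPM, and Pac H1 lay above both. Gbp7 was at 4.78 and 10.7 CPM. Ifi203, of the DNA-binding PYHIN family, reached 352 CPM in Pac H1 and 172 CPM in Pac G9 against at most 93.9 CPM in DMSO control (log2 fold change 0.42, edgeR adjusted p = 0.413), and its relative Ifi204 had 9 counts in all. Members of the Gbp and PYHIN families are alike in sequence, and the counting could divide their reads.

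Of the remaining members, Rtp4 and Xaf1 were highest by far in the same 2 libraries. Rtp4 was at 211 and 179.6 CPM in Pac G9 and Pac H1 and at most 6.36 CPM in the other 15, and Xaf1 was at 67.9 and 164 CPM and at most 4.22 CPM. In DMSO control they reached 4.93 and 14.8 CPM, both in DMSO 9. Ifi27 was spread more evenly, with 329 and 149.9 CPM in Pac G9 and Pac H1, 172 CPM in Pac E2 and medians of 26.3 CPM in DMSO control and 58.5 CPM in paclitaxel resistant libraries (log2 fold change 1.26, SE 0.41, edgeR adjusted p = 0.0538). Ifi35 reached 278 and 464 CPM against at most 127 CPM in DMSO control, and Phf11b 17.4 and 84.7 CPM against at most 21 CPM. Ifi44 was at 0 in all DMSO control libraries and had 7 and 9 counts in Pac G9 and Pac H1. Cxcl10, a chemokine that draws activated T cells, was at 44.5 CPM in Pac G9, 29.2 CPM in Pac C11, 20.6 CPM in Pac F10 and 8.76 CPM in Pac H1, against at most 6.53 CPM in DMSO control.

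Pac G9 and Pac H1 were then compared gene by gene. This sets 1 library against 1 library, with no replicate check, and its 95% intervals cover counting error only. Of the 44 members with at least 4 counts in both, the interval of the ratio lay above 1 for 19 genes and below 1 for 19, and held 1 for 6. The level of Ifih1 in Pac G9 was 9.77 times that in Pac H1 (interval 4.40 to 27), Gbp2 6.98 times (3.12 to 19.4), Herc6 5.83 times (3.53 to 10.3) and Cxcl10 5.07 times (3.15 to 8.69). For Ifit1 the ratio was 2.96 (2.73 to 3.22) and for Oasl1 2.57 (2.37 to 2.79). At the other end the ratio of Pac G9 to Pac H1 was 0.0364 for Cmpk2 (0.0128 to 0.0844), 0.179 for Oas3 (0.0805 to 0.377), 0.205 for Phf11b (0.160 to 0.262), 0.277 for Oas2 (0.212 to 0.360) and 0.414 for Xaf1 (0.358 to 0.479). Irf7 and Irf9 had ratios of 0.496 and 0.518, and Ddx58, Dhx58, Oasl2, Isg15, Stat2 and Irf1 had intervals that held 1. Thus the chemokine, the Ifit genes and Oasl1 weighed more in Pac G9, while Irf7, Usp18, Oas2, Oas3 and the GTPases Irgm1 and Igtp weighed more in Pac H1.

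**Figure D5:**
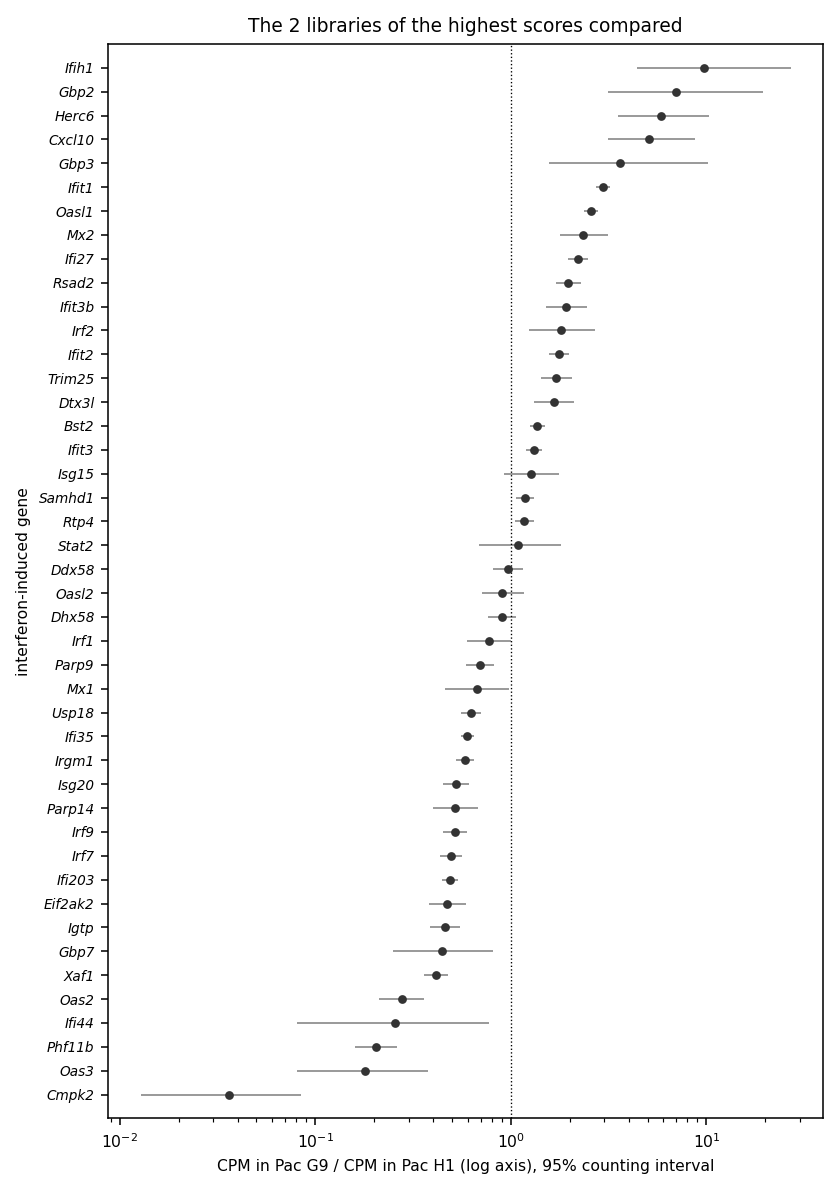
The ratio of CPM in Pac G9 to CPM in Pac H1 (horizontal log axis, bars for the 95% counting interval) for the 44 interferon-induced genes with at least 4 counts in both libraries. The ratios run from 0.0364 for Cmpk2 to 9.77 for Ifih1, and 6 intervals hold 1.

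Transcripts of the interferons themselves were rare, and none passed the count filter. Of the 10 interferon genes listed, Ifnb1, the interferon alpha genes Ifna2 and Ifna4, Ifng and Ifnk had counts. Ifnb1 had 9 counts in Pac G9 and 3 in Pac H1, and 0 in every other library. Ifna4 had 26 counts in Pac G9 and 6 in Pac H1, 5 over 4 of the other 15 paclitaxel resistant libraries and 0 in DMSO control. Ifna2 had 3 and 2 counts in Pac G9 and Pac H1 and 0 elsewhere. As raw CPM, Ifna4 was at 4.89 in Pac G9 (95% Poisson interval 3.19 to 7.17) and 2.89 in Pac H1 (1.06 to 6.29), and the DMSO control libraries held 0 of 48909568 counts, for which the same interval reaches 0.0754. Ifnb1 was at 1.69 in Pac G9 (0.774 to 3.21) and 1.45 in Pac H1 (0.298 to 4.22). The interferon alpha genes are near copies of each other, so which of them was read is uncertain, and a further one, Ifna13, had 9 counts over 3 DMSO control libraries and 0 in Pac G9 and Pac H1. Ifng, interferon gamma, had 41 counts over 9 of the 12 DMSO control libraries, 9 in Pac G9 and 0 in Pac H1. Ifnk had 18 counts in all, 8 of them in Pac G9, and the genes Ifna1, Ifna5, Ifne, Ifnl2 and Ifnl3 had 0.

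Genes that carry the interferon signal were read in the same way. Of 28 signalling genes, 22 were tested and 0 passed the threshold, where 0.995% of all tested genes were higher and 1.21% lower. So 0 among 22 does not set this list apart from all genes. At an unadjusted p under 0.05, 1 was higher and 2 lower, beside 14.9% and 10.2% of all tested genes. Ifngr2, a chain of the interferon gamma receptor, had the lowest p and was named after its value was seen, with medians of 9.72 CPM in DMSO control and 18.6 CPM in paclitaxel resistant libraries (log2 fold change 0.66, SE 0.21, edgeR adjusted p = 0.0488). Of the 22 tested, 4 exceeded every DMSO control library in Pac G9 and 5 in Pac H1, beside 15.6% and 10.3% of all tested genes. Tlr7, a sensor of single-stranded RNA also named after its value was seen, was below the filter and held 6.53 and 8.27 CPM in these 2 libraries against at most 0.193 CPM in DMSO control.

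A further list of 43 genes that interferons induce, 29 of them tested, also had 0 past the threshold, with 6 higher and 4 lower at an unadjusted p under 0.05, against the same 14.9% and 10.2%. Nlrc5, which drives genes of antigen presentation, came closest (log2 fold change 1.74, SE 0.43, edgeR adjusted p = 0.0114), and its highest library was Pac F10 at 18.4 CPM. Slfn8 followed (log2 fold change 2.69, SE 0.69, edgeR adjusted p = 0.0135) at 36.3 CPM in Pac G9 and 83.7 CPM in Pac H1. Lgals3bp was at 43.0 and 174 CPM against at most 5.55 CPM in DMSO control (log2 fold change 3.12, SE 0.83, edgeR adjusted p = 0.0173). In Pac G9, 13 of the 29 genes exceeded every DMSO control library, and in Pac H1 20 did, against 15.6% and 10.3% of all tested genes. These 3 genes, too, were named after their values were seen. Of both lists together, 2 genes passed without the libraries labelled DMSO 12 and Pac H9, beside 321 of the 9567 genes then tested.

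Between these 2 libraries and the rest stood Pac C11 and Pac F10, nearest neighbors of each other over the tested genes. In Pac C11, 23 of the 49 members exceeded every DMSO control library, 10 of them among the 25 tested, where 22.6% of all tested genes did so. In Pac F10, 17 members did, 9 of the 25 tested, beside 25.8% of all tested genes. The 12 genes common to both (52.2% of the first list and 70.6% of the second) included Oasl1, Ifit1, Ifit3, Rsad2, Cxcl10, Trim25 and Dtx3l. Of the 25 tested members, 6 exceeded the controls in both, which is 60% of those in Pac C11 and 66.7% of those in Pac F10. Over all tested genes 15.9% did so in both, which is 70.5% and 61.9% of the genes above the controls in each, so the overlap of the members was near that of all genes. Oasl1 stood at 325 and 118 CPM in Pac C11 and Pac F10, Ifit1 at 139.8 and 109 CPM, and Rsad2 at 135 and 34.8 CPM. Other members were far below their level in Pac G9 and Pac H1, with Irf7 at 5.57 and 1.57 CPM, Usp18 at 2.19 and 0.875 CPM, Rtp4 at 6.36 and 1.92 CPM and Isg15 at 4.18 and 2.27 CPM. In Pac C11 each of these 4 still exceeded every DMSO control library, and in Pac F10 none of the 4 did.

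Pac D7, Pac E2 and Pac H8 had lower scores. In Pac D7, 17 members exceeded every DMSO control library, 10 of the 25 tested, against 18.5% of all tested genes, among them Samhd1 at 328 CPM, Ifi35 at 163 CPM, Irf1 at 70.0 CPM, Isg20 at 21.1 CPM and Stat2 at 18.0 CPM. Oasl1 and Ifit3 were at 5.63 and 1.13 CPM in that library. In Pac E2, 11 members did, 7 of the 25 tested against 9.51% of all tested genes. Among these members were Ifi27 at 172 CPM, Ifi203 at 126 CPM and Irf9 at 35.6 CPM. In Pac H8, 7 members did, and the 3 among the 25 tested are close to the 11.7% of all tested genes. The shallowest library, Pac C1, held 120.4 CPM of Ifit1 from 58 counts and 49.8 CPM of Ifit3 from 24 counts, at a score of 0.39. Among the DMSO control libraries the 2 highest scores were DMSO 9 at 0.55 and DMSO 11 at 0.51, the shallowest and the deepest of their group, and DMSO 11 held 53.0 CPM of Ifit1 and 23 CPM of Rsad2.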

How the data were processed

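Counts from 3′ RNA-seq of 30 mouse lymphoma libraries were analysed. The authors aligned reads with STAR 2.5.1b to GRCm38 (mm10) and deposited raw counts per gene, 55401 genes by 30 libraries, with 0 columns left unused and 0 rows that name no gene. The primers carried molecular identifiers, but whether duplicates were collapsed, the strand setting and which libraries shared a sequencing pool are not given in the sources used here, so intervals cover counting error only.

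Counts were normalized by TMM and filtered with filterByExpr in edgeR 4.0.16 (R 4.3.3), and the 17 libraries labelled paclitaxel resistant were compared with the 12 labelled DMSO control by the quasi-likelihood F test, with Benjamini-Hochberg adjustment over all tested genes and a threshold of 0.01. The SE is the log2 fold change divided by the square root of F. The parental library was left out of the fit. The step was tested on simulated data. Depth ranged from 480919 to 6739131 counts. Gene symbols were found for 55141 identifiers, and positions are of GRCm38. Alternatives were RLE factors, DESeq2 1.42.0, the likelihood ratio test, other filters, a depth covariate, thinning to 480919 counts and leaving out libraries.

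The members and lists were chosen with earlier results of these data known. Every member was to be named, in full for those past the threshold and for the regulators. Of other lists, genes past the threshold were to be named, besides the 6 genes most correlated with the score. Some results that this rule covers are not reported here. Genes named outside this rule are marked as such or serve as cell type markers. The p19ARF deletion is common to all libraries and was not checked here.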

Additional observations from a re-analysis of the deposited data

How the results depend on the processing

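Of the 25 members tested, 18 kept the sign of the log2 fold change under each alternative and 7 did not, of which 0 had passed the threshold. Ifi203, Igtp, Irgm1 and Parp14 changed sign without Pac G9 and Pac H1, Eif2ak2 also without Pac H1 alone, Irf2 with depth as a covariate, and Irf1, with the value closest to 0, under 6 alternatives. Over single members and alternatives, 7 calls of Ifit3 or Oasl1 were lost and 10 calls of other members were gained. The number of genes called was 208 and became 321 without the libraries labelled DMSO 12 and Pac H9, 338 without those labelled Pac C3 and DMSO 11, 491 with DESeq2, 448 with the likelihood ratio test, 135 after thinning, 321 with a CPM over 1 in at least 2 libraries and 714 at a threshold of 0.05. It was 168 without Pac G9, 168 without Pac H1 and 143 without both. The number of members called was 2 and became 4 without Pac C3 and DMSO 11, 6 with the likelihood ratio test, 7 without a filter, 0 after thinning, 0 without Pac G9, 0 without Pac H1, 0 without both, 7 with the CPM filter and 6 at a threshold of 0.05. For the signalling and other induced genes together the count was 0 and became 2 without DMSO 12 and Pac H9, 2 without Pac C3 and DMSO 11, 2 with DESeq2, 4 with the likelihood ratio test, 1 without a filter, 1 with depth as a covariate, 1 without Pac C1, 1 with the CPM filter and 5 at a threshold of 0.05. The cause was not tested, except that thinning left 12 members to test and no filter all 49. Ifit3 and Oasl1 were not among the 12, so the 0 after thinning says nothing about them. The alternatives that left out Pac G9, Pac H1 or Pac C1, and the CPM filter, were chosen after seeing the data. The difference in mean score was 0.80 and ranged from 0.44 to 1.04. No paired analysis was possible because the library names share no replicate numbers between groups. Members with few counts are limited by depth, such as Oas1a and Parp12.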

Other observations

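Outside the 49 genes, those whose log2 level followed the score closely over the 17 paclitaxel resistant libraries included Shisa5, Slfn8, Helz2, H2-T23 and Mndal. Pearson's r was 0.89 for Shisa5, 0.89 for Slfn8, 0.85 for Helz2, 0.83 for H2-T23 and 0.83 for Mndal. These are descriptions over libraries that share 2 extreme points. Without Pac G9 and Pac H1, r over the other 15 libraries was 0.75 for Shisa5, 0.54 for Slfn8, 0.56 for Helz2, 0.54 for H2-T23 and 0.45 for Mndal. Shisa5 was at 239 CPM in Pac G9 and 229 CPM in Pac H1, up to 130.0 CPM in the other 15 and at most 56.3 CPM in DMSO control (log2 fold change 1.23, edgeR adjusted p = 0.0267). H2-T23, a nonclassical class I gene of the major histocompatibility complex, was at 111 and 167 CPM in these 2 libraries. It reached 80.2 CPM in the other 15 and at most 37.5 CPM in DMSO control. Helz2 was at 25.8 and 34.1 CPM, up to 13.5 CPM in the other 15 and at most 6.91 CPM in DMSO control. Mndal, of the PYHIN family, was at 262 and 534 CPM, up to 219.7 CPM in the other 15 and at most 145 CPM in DMSO control.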
